A study of Rattus norvegicus with 8 samples.

Results

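The genes of cholesterol synthesis and sterol regulation were examined in the striatum of rats that had self-administered methamphetamine (METH) or saline. The set held 30 genes, taken by symbol and not by their values from the 17337 genes of the count table: 18 enzymes of synthesis, 5 genes of the control by SREBP, and 7 genes of sterol transport, storage and removal. The samples were striata of 4 saline and 4 METH rats, male Sprague-Dawley rats with the genotype WT in the labels, whose age was not given in the sources used here. METH rats had pressed a lever for infusions of 0.05 mg/kg METH in daily sessions of 2 h over 16 days, and saline rats had gone through the same steps with saline. Rats of both groups had been trained with food, carried a jugular catheter placed under pentobarbital, and were anaesthetised with ketamine and xylazine at the end. Of 24 METH and 8 saline rats that began, the study chose 4 per group for plasma sampling. These had a stable response, under 20% variation over the last 3 days. That the striata came from the same rats is not stated outright. If they did, the comparison covers stable responders.

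Brain cells make their own cholesterol, because the lipoproteins that carry it in blood hardly cross the blood-brain barrier. Acetyl units are joined into mevalonate, mevalonate is turned into isoprenoid units and squalene, and squalene is closed into lanosterol and trimmed to cholesterol. When sterol in the endoplasmic reticulum is low, Scap escorts the SREBP proteins (the products of Srebf1 and Srebf2) to the Golgi for cleavage, and the cleaved proteins switch on the synthesis genes. Insig proteins hold Scap back when sterol is plentiful. Oligodendrocytes need much cholesterol for myelin, and neurons dispose of it by hydroxylation through Cyp46a1.

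SREBP proteins act at promoters together with NF-Y, a factor that binds the CCAAT box, and promoter sequences are shown for that reason. RefSeq promoters of assembly GRCr8 were found for 25 of the 30 genes, and Pmvk, Fdft1, Sqle, Stard4 and Abcg1 are named only. Within the 250 bases before the start, GCCAAT was present on either strand in 11 of 15 windows of synthesis enzymes (73.3%), against 12.7% of the 33469 windows of all genes. It was present in 3 of 6 windows of SREBP control genes, where Srebf1 has 2 windows, and in 1 of 5 windows of transport, storage and removal genes. The shorter CCAAT, which GCCAAT contains, was present in 12 of the 15 synthesis windows and in 34% of all windows. A match of letters describes the sequence and is not a binding site, and these letters were chosen after the windows had been looked at. The 250 bases before the start are given for Hmgcs1, a synthesis gene, for Insig1, a control gene, and for Cyp46a1, a removal gene, 5′ to 3′ on the strand of the gene. Capitals mark ATTGG, which is CCAAT read on the other strand. The positions on GRCr8 are chr2:53382054-53382303 on the plus strand, chr4:8057770-8058019 on the minus strand and chr6:133011740-133011989 on the plus strand.
Hmgcs1: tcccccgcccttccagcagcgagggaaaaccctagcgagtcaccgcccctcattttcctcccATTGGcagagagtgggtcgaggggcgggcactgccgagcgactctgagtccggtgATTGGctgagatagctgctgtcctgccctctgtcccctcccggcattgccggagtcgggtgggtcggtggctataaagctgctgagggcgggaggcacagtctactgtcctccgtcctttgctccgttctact
Insig1: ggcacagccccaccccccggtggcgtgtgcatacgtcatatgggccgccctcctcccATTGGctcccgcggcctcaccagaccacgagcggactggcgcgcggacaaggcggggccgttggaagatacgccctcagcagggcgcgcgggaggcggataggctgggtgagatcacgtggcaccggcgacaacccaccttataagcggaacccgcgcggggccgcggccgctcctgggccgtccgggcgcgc
Cyp46a1: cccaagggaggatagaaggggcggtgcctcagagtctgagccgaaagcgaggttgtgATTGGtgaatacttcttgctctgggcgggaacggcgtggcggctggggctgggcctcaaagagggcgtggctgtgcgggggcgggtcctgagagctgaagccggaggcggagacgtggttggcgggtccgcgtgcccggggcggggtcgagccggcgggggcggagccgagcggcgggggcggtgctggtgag
The stretch of Hmgcs1 held 2 such boxes, and those of Insig1 and Cyp46a1 held 1 each. GCCAAT was present in the windows of Hmgcs1 and Insig1 and not in that of Cyp46a1.

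Library totals lay between 18135939 and 21211920 reads. Levels are given as CPM, the reads of a gene scaled to a library size common to all rats by TMM, where 3 reads correspond to between 0.142 and 0.169 CPM. All 30 genes passed the filter on low counts that left 12014 genes for testing, and the lowest of them, Hsd17b7, had 28 to 49 reads in a rat. None of the 8 markers of striatal projection neurons was at 0. Choroid plexus markers, which would mark tissue from the ventricle, summed to 3.95 to 5.55 CPM in saline rats and 5.62 to 8.91 CPM in METH rats.

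None of the 30 genes was called between METH and saline rats. The quasi-likelihood test of edgeR called 0 of them by the rule FDR below 0.05 and average log2 CPM over 1, and that rule called 0.516% of all genes tested. DESeq2, limma-voom and both other edgeR tests also called 0 of them. At a raw p below 0.05, 1 gene was higher in METH rats (Cyp46a1), where 6.26% of all genes tested were higher, and 0 were lower, where 4.88% were lower. In 0 of the 30 genes did METH and saline rats not overlap, whereas over all genes METH rats lay wholly above in 3.75% and wholly below in 2.65%. The median log2 fold change (METH minus saline, as throughout) was -0.04 over the 30 genes, with 10 above and 20 below 0. Over all 12014 genes tested it was -0.01, with 5842 above and 6172 below 0. The values of the 30 genes ran from -0.23 (Abca1) to 0.22 (Cyp46a1). In bulk tissue, fewer cells of a type and less RNA per cell cannot be told apart.

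The intervals show how large a difference the data allow for each gene. The 95% interval, taken from the standard error of the fit and not adjusted over genes, lay within a 2-fold difference in either direction for 30 of the 30 genes and within 1.41-fold for 26. Idi1, Hsd17b7, Abca1 and Soat1 were the exceptions to the narrower bound. The narrowest interval was that of Scap, 0.902 to 1.11-fold, and the widest that of Hsd17b7, 0.640 to 1.56-fold.

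**Figure D1:**
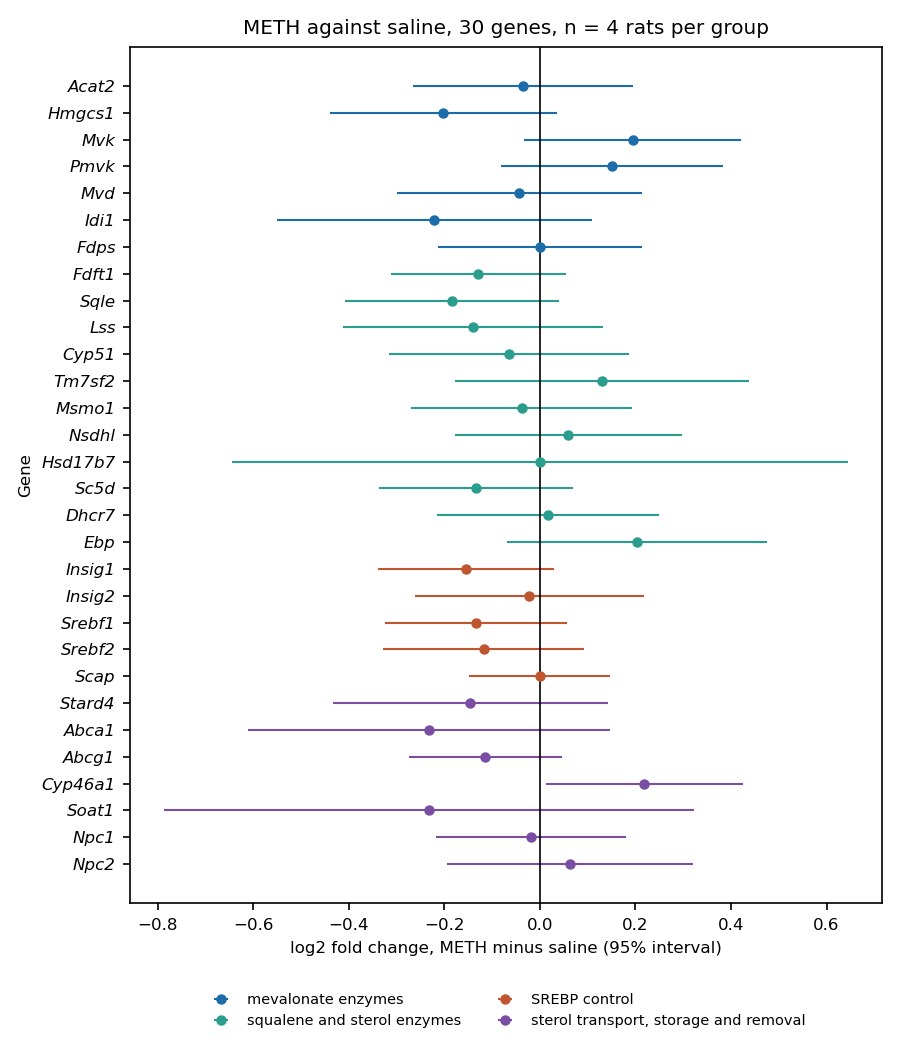
Log2 fold change of each of the 30 genes (x axis, METH minus saline, points) with its 95% interval (bars), coloured by role, n = 4 rats per group. The interval of Cyp46a1, 0.01 to 0.42, is the only one of the 30 that does not include 0.

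The 7 mevalonate enzymes had a median log2 fold change of -0.03, with 3 above and 4 below 0, and the median ran from -0.09 without METH rat 3 to 0.03 without METH rat 4. Hmgcs1, which makes HMG-CoA on the way to mevalonate, was at 219.5, 238, 193 and 228 CPM in saline rats 1 to 4 and at 232, 177, 197 and 157 CPM in METH rats 1 to 4. METH rats 2 and 4 lay below all saline rats, and METH rat 1 was second only to saline rat 2. The difference was -0.20 log2 units (SE 0.11, quasi-likelihood FDR 0.505), being -0.31 without METH rat 1 (quasi-likelihood FDR 0.222) and -0.12 without METH rat 4. Fdps, which makes the farnesyl diphosphate used for squalene and for prenylated proteins, was at 92.0, 90.5, 79.2 and 93.9 CPM in saline rats 1 to 4 and at 87.9, 84.8, 106 and 77.2 CPM in METH rats 1 to 4. METH rats held both the highest and the lowest value, and the difference was 0.00 (SE 0.10) with an interval of 0.863 to 1.16-fold.

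The kinases that phosphorylate mevalonate in turn, Mvk and Pmvk, had log2 fold changes of 0.19 and 0.15, with a quasi-likelihood FDR of 0.501 and 0.609. Mvk was at 46.7, 42.2, 40.1 and 36.1 CPM in saline rats 1 to 4 and at 44.0, 44.6, 55.5 and 44.9 CPM in METH rats 1 to 4. METH rat 3 was the only METH rat above all saline rats, and with 1 rat left out the difference ran from 0.11 without METH rat 3 to 0.26 without saline rat 1. For Pmvk it ran from 0.06 without METH rat 3 to 0.20 without METH rat 4. Acat2, the cytosolic thiolase at the start of the pathway, differed by -0.03 and Mvd, which decarboxylates mevalonate diphosphate, by -0.04 log2 units. Idi1, the isomerase of the isoprenoid units, had the lowest value of these enzymes, -0.22 (SE 0.15), from 336 to 494 reads in saline rats and 266 to 462 reads in METH rats, and it ran from -0.34 without saline rat 3 to -0.13 without METH rat 3.

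The 11 enzymes from squalene to cholesterol had a median log2 fold change of -0.04, with 5 above and 6 below 0, and the median ran from -0.09 without METH rat 1 to 0.03 without saline rat 2. Sqle, the epoxidase that is another control point of the pathway, was at 42.6, 46.7, 37.5 and 47.4 CPM in saline rats 1 to 4 and at 44.4, 36.3, 36.9 and 35.7 CPM in METH rats 1 to 4. METH rats 2, 3 and 4 were below every saline rat, and METH rat 1 was within the saline range. The difference was -0.18 log2 units (SE 0.10, quasi-likelihood FDR 0.512), with a two-sided p of 0.143 by the exact permutation test over the 70 labellings of the rats. Cyp51, the lanosterol demethylase, was at 155, 187, 127 and 162 CPM in saline rats 1 to 4 and at 174, 143, 157 and 130.0 CPM in METH rats 1 to 4. All METH rats lay inside the saline range, and the difference was -0.06 (SE 0.12).

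Dhcr7, the reductase that ends one branch of the pathway, was at 28.0, 30.2, 22.4 and 28.0 CPM in saline rats 1 to 4 and at 28.8, 25.9, 29.1 and 26.1 CPM in METH rats 1 to 4. All METH rats lay inside the saline range here too, with a difference of 0.02 log2 units (SE 0.11). Ebp, the sterol isomerase, had the highest value of these enzymes, 0.20 (SE 0.13, quasi-likelihood FDR 0.554), at 9.81 to 11.3 CPM in saline rats and 11.2 to 12.9 CPM in METH rats. Fdft1 (squalene synthase), Lss (lanosterol synthase), Sc5d (a sterol desaturase) and Msmo1 (which oxidises sterol methyl groups) had log2 fold changes of -0.13, -0.14, -0.13 and -0.04, and the value of Lss ran from -0.23 without saline rat 4 to -0.06 without saline rat 3 and that of Sc5d from -0.19 without METH rat 2 to -0.07 without METH rat 3. Tm7sf2, a sterol reductase, had 0.13, Nsdhl, a sterol dehydrogenase, had 0.06, and Hsd17b7, a keto-sterol reductase, had 0.00. That of Tm7sf2 ran from 0.02 without saline rat 3 to 0.24 without saline rat 2, and that of Nsdhl from 0.02 without METH rat 2 to 0.12 without saline rat 2. Values of Cyp51 and Fdps are uncertain as far as reads were shared with processed copies of these genes, since the treatment of such reads was not given in the sources used here.

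**Figure D2:**
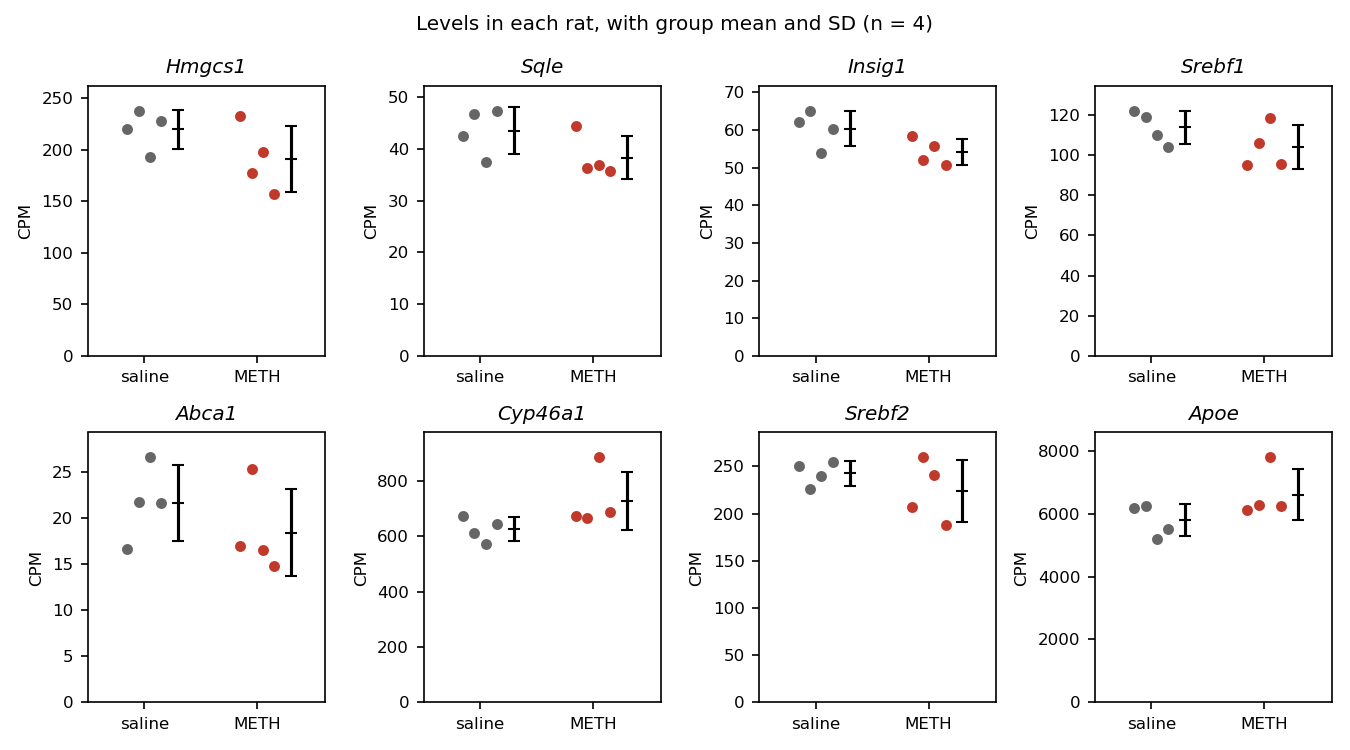
Level in each rat (points, CPM, axes from 0) of Hmgcs1, Sqle, Insig1, Srebf1, Abca1, Cyp46a1, Srebf2 and Apoe in saline (grey) and METH (red) rats, with the mean and SD of each group (n = 4). The groups overlap in each of the 8 genes, and METH rat 3 lies apart above the other METH rats for Cyp46a1 and Apoe.

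Rats of one group differed in the level of the synthesis enzymes as a whole. In saline rat 3, 1 of the 18 enzymes (Lss) was above its mean over the 8 rats, and 7 of the 18 had their lowest value there. In saline rat 2, 15 of the 18 were above the mean. The median deviation of the 18 enzymes from their means was -0.14 log2 units in saline rat 3, 0.15 in saline rat 2, -0.07 in METH rat 4 and 0.07 in METH rat 1, while the median over all genes tested was between 0.0010 and 0.0064 in every rat. Rats of both groups stood at either end.

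The CPM of the 18 enzymes summed to 1042, 1109, 888 and 1049 in saline rats 1 to 4 and to 1062, 940.3, 1016 and 881 in METH rats 1 to 4. The sum of 9 oligodendrocyte markers was 14653, 19873, 13895 and 17504 CPM in saline rats and 17974, 13704, 19339 and 12995 CPM in METH rats, with none of the markers at 0. METH rat 4, saline rat 3 and METH rat 2 had the 3 lowest values of both sums, and saline rat 2 had the highest of both. The part of oligodendrocyte RNA in the enzyme levels was not tested. Without saline rat 3, Hmgcs1, Idi1, Sqle and Insig1 had a raw p below 0.05, with log2 fold changes of -0.26, -0.34, -0.25 and -0.21, and none was called (quasi-likelihood FDR from 0.476 to 0.512). Saline rat 3 had the lowest saline value of each of these genes, so leaving it out by itself moves their differences further below 0. The share of all genes below that raw p in the same fit is not given here.

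**Figure D3:**
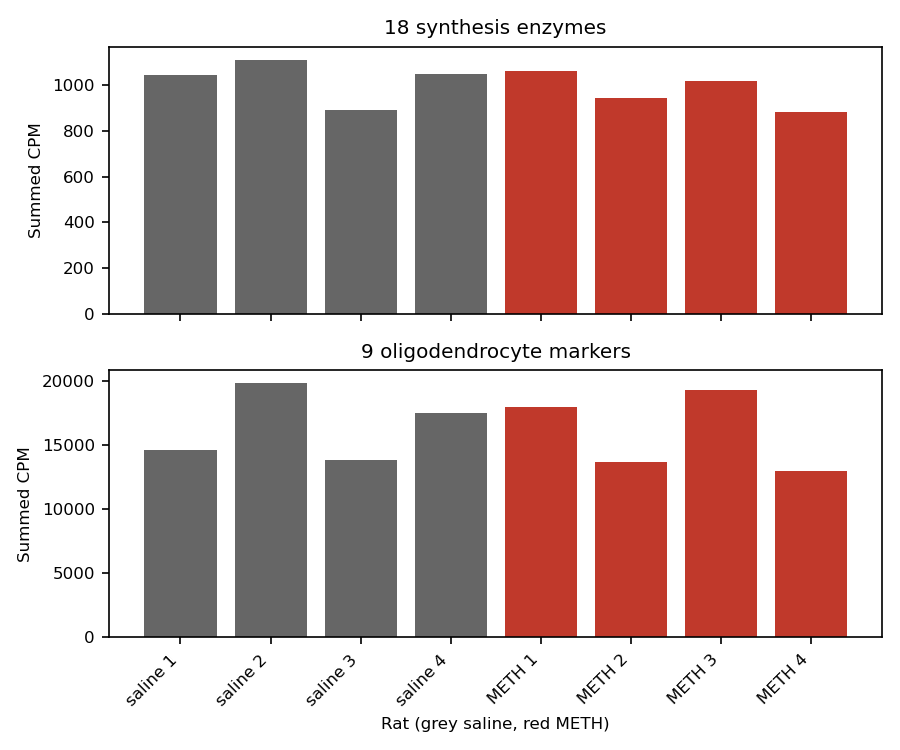
Summed level (CPM, axes from 0) of the 18 synthesis enzymes (upper bars) and of the 9 oligodendrocyte markers (lower bars) in each rat, grey for saline and red for METH. The enzyme sum lies at 888 to 1109 in saline rats and 881 to 1062 in METH rats, and both sums are lowest in METH rat 4.

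The 5 genes of SREBP control had a median log2 fold change of -0.12, with 5 below 0 and none called. Of these, Insig2 (-0.02) and Scap (-0.00035) were near 0. The median ran from -0.15 without METH rat 3 to -0.04 without METH rat 4. Srebf2, the main activator of the synthesis genes, was at 250.1, 226, 239 and 255 CPM in saline rats 1 to 4 and at 207, 259.8, 240.4 and 187 CPM in METH rats 1 to 4. METH rats held the highest value and the lowest, and the difference was -0.12 (SE 0.10, quasi-likelihood FDR 0.669), running from -0.20 without METH rat 2 to -0.04 without METH rat 4. Srebf1, whose product controls mainly fatty acid genes, was at 122, 119, 110.0 and 104 CPM in saline rats 1 to 4 and at 95.2, 106, 118 and 95.6 CPM in METH rats 1 to 4. METH rats 1 and 4 lay below all saline rats, and METH rats 2 and 3 within their range. The log2 fold change of Srebf1 was -0.13 (SE 0.09, quasi-likelihood FDR 0.577), and ran from -0.20 without METH rat 3 to -0.09 without METH rat 1. The former value had a raw p of 0.0285 and an FDR of 0.593 by the same edgeR test.

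Insig1, which is itself switched on by SREBP, was at 62.2, 65.1, 54.0 and 60.2 CPM in saline rats 1 to 4 and at 58.3, 51.9, 55.8 and 50.8 CPM in METH rats 1 to 4. METH rats 2 and 4 lay below every saline rat, and the other METH rats within the saline range. The difference was -0.16 log2 units (SE 0.09), an interval of 0.790 to 1.02-fold, with a two-sided exact permutation p of 0.114. Insig2, the related sensor, was at 19.9, 22.2, 25.8 and 23.1 CPM in saline rats 1 to 4 and at 22.7, 24.4, 19.7 and 22.8 CPM in METH rats 1 to 4. METH rat 3 was just under the lowest saline rat, the others were within the range, and the difference was -0.02 (SE 0.11). Scap, the escort protein, was at 256, 267, 279 and 261 CPM in saline rats 1 to 4 and at 259, 264, 286 and 254 CPM in METH rats 1 to 4. The groups covered nearly the same range, with a difference of 0.00 in size (SE 0.07).

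**Figure D4:**
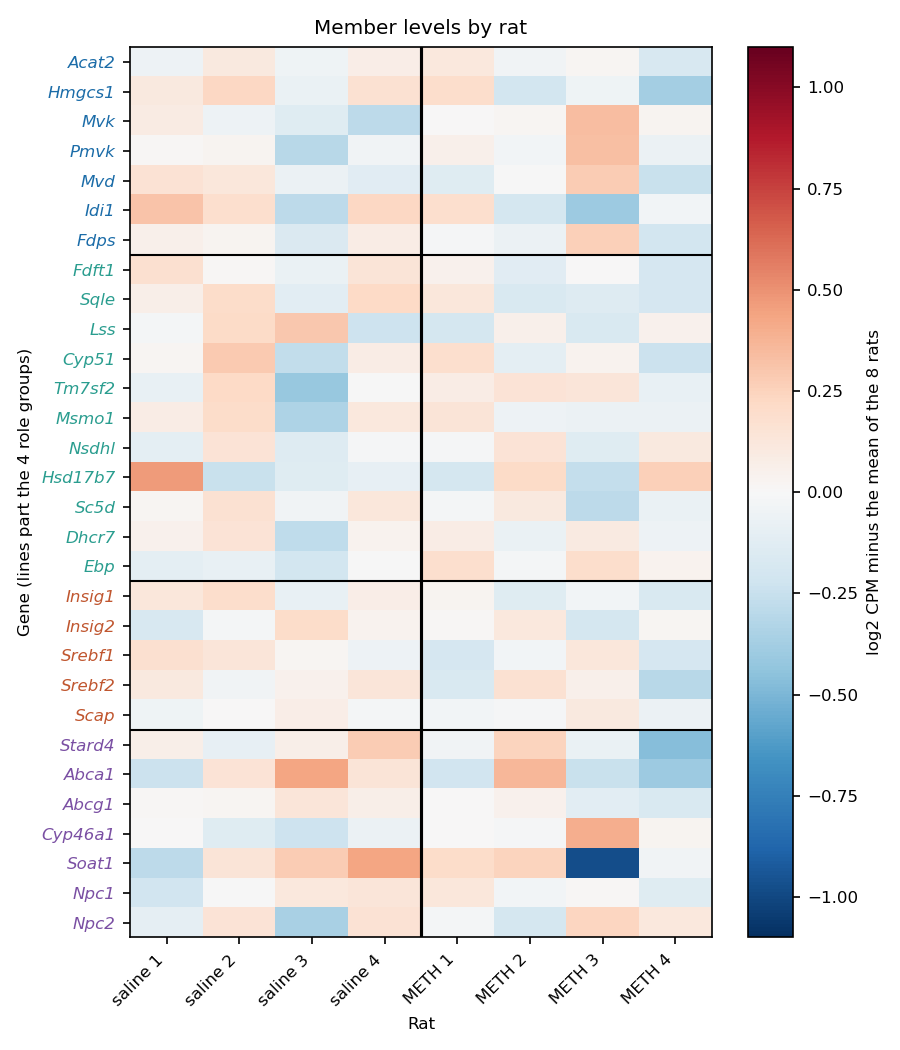
Level of each of the 30 genes (rows) in each rat (columns) as log2 CPM minus the mean of the 8 rats, red above and blue below it, with horizontal lines between the role groups and a vertical line between saline and METH rats. In saline rat 3, 1 of the 18 enzymes of the upper groups is above the mean, and Soat1 in METH rat 3, at -0.98, is the lowest field.

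The 7 genes of sterol transport, storage and removal had a median log2 fold change of -0.11, with 2 above and 5 below 0, and the median ran from -0.15 without METH rat 2 to -0.02 without METH rat 3. Cyp46a1, the neuronal hydroxylase that turns cholesterol into the form in which it leaves the brain, had the lowest raw p of the 30 genes. It was at 674, 612, 575 and 645 CPM in saline rats 1 to 4 and at 675, 666, 887 and 687 CPM in METH rats 1 to 4. METH rats 1, 3 and 4 lay above all saline rats, METH rat 1 by a small margin, METH rat 2 was under saline rat 1, and METH rat 3 stood far above the rest. The difference was 0.22 log2 units (SE 0.10), with a raw p of 0.0392 and an FDR of 0.426 by the quasi-likelihood test of edgeR. Over 19 alternatives the FDR ranged from 0.331 to 0.769, and the two-sided exact permutation p was 0.0571. Without METH rat 3 the difference was 0.11, with a raw edgeR p of 0.140. The raw p was below 0.05 in 4 of the 8 fits with a rat left out, and above it without saline rat 2, 3 or 4 as well.

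The sum of the 8 striatal projection neuron markers was also highest in METH rat 3. It was 14512, 14019.7, 14619 and 14825 CPM in saline rats 1 to 4 and 15696, 15989.6, 18821 and 14765 CPM in METH rats 1 to 4. The part of these cells in the level of Cyp46a1 was not tested.

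Abca1, the efflux pump that oxysterols induce through LXR, was at 16.6, 21.7, 26.6 and 21.6 CPM in saline rats 1 to 4 and at 16.9, 25.3, 16.5 and 14.8 CPM in METH rats 1 to 4. METH rat 2 was among the highest of all, and the other METH rats were near or under the lowest saline rat. The difference was -0.23 (SE 0.18, quasi-likelihood FDR 0.634), being -0.43 without METH rat 2 (quasi-likelihood FDR 0.333) and -0.12 without saline rat 3. Abcg1, a partner pump in efflux to lipoproteins, was at 142, 143, 155 and 148 CPM in saline rats 1 to 4 and at 142, 146, 131 and 126 CPM in METH rats 1 to 4. METH rats 1, 3 and 4 lay under every saline rat, METH rat 1 by a small margin, and the difference was -0.11 (SE 0.07). Stard4, which carries cholesterol between membranes, was at 38.3, 34.3, 38.3 and 44.3 CPM in saline rats 1 to 4 and at 35.6, 43.4, 34.7 and 26.4 CPM in METH rats 1 to 4. METH rat 4 alone lay outside the saline range, and the difference was -0.15 (SE 0.13), running from -0.27 without METH rat 2 to -0.03 without METH rat 4.

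Soat1, the enzyme that esterifies cholesterol for storage, had 54 reads in METH rat 3, 113 to 153 reads in the other METH rats and 91 to 175 reads in saline rats. The difference was -0.23 log2 units (SE 0.26), running from -0.36 without METH rat 2 to -0.02 without METH rat 3. Npc1 and Npc2, which export cholesterol from lysosomes, had log2 fold changes of -0.02 and 0.06, with intervals of 0.860 to 1.13-fold and 0.874 to 1.25-fold, and the groups overlapped in both.

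Another 65 genes of sterol and SREBP biology were followed in 4 lists, of which 60 were found by symbol and 56 passed the filter. The quasi-likelihood test of edgeR called 0 of the 56. At a raw p below 0.05, 4 were higher (7.14%, beside 6.26% of all genes tested) and 3 were lower (5.36%, beside 4.88%), shares near the background. Of 9 further synthesis genes tested, 0 were below that threshold.

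Of 24 genes of uptake, efflux and oxysterols tested, 3 were higher at a raw p below 0.05, namely Apoe, Clu and Gramd1b. Apoe, the main apolipoprotein of the brain, was at 6194, 6229.5, 5197 and 5521 CPM in saline rats 1 to 4 and at 6102, 6288, 7799 and 6233 CPM in METH rats 1 to 4. METH rat 3 was far above the others, and the log2 fold change of 0.19 (SE 0.09, quasi-likelihood FDR 0.443) was 0.10 without it. Clu, another apolipoprotein, was at 844, 756, 725 and 673 CPM in saline rats 1 to 4 and at 819, 863, 837 and 885 CPM in METH rats 1 to 4. Gramd1b, which carries cholesterol from the plasma membrane to the endoplasmic reticulum, was at 37.8, 40.5, 47.3 and 45.4 CPM in saline rats 1 to 4 and at 45.7, 56.6, 49.0 and 53.9 CPM in METH rats 1 to 4. For Clu only saline rat 1 reached into the METH range, and for Gramd1b only METH rat 1 lay within the saline range. Their log2 fold changes were 0.18 and 0.26, with an FDR of 0.400 and 0.355 by the quasi-likelihood test of edgeR. With 1 rat left out, the raw p stayed below 0.05 in 5 of 8 fits for Apoe, 4 for Clu and 4 for Gramd1b.

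Among 9 genes of SREBP processing and sterol-regulated degradation tested, 1 was lower at a raw p below 0.05. It was Ubxn8, an adaptor of degradation at the endoplasmic reticulum, at 25.5, 24.3, 23.5 and 22.1 CPM in saline rats 1 to 4 and at 21.5, 18.9, 16.9 and 20.3 CPM in METH rats 1 to 4. The groups did not overlap, and the difference was -0.30 (SE 0.11, quasi-likelihood FDR 0.328), with a raw p below 0.05 in 8 of 8 fits with a rat left out. Nor did they overlap for Erlin2 (-0.23), a protein of degradation at the endoplasmic reticulum, and Osbp (-0.11), an oxysterol-binding protein, both with lower values in METH rats, or for Nr1h3 (0.22), an LXR receptor gene, with higher values. Of the 56 genes of the lists, METH rats thus lay wholly below in 3 (5.36%, beside 2.65% of all genes tested) and wholly above in 1 (1.79%, beside 3.75%). Erlin2, Osbp and Nr1h3 were named after their values were seen, and their raw p was 0.0546, 0.139 and 0.204 by the same edgeR test.

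Of 14 fatty acid genes under SREBP control tested, 1 was lower and 1 was higher at a raw p below 0.05. Acaca, which makes malonyl-CoA, was at 58.4, 57.4, 69.2 and 52.9 CPM in saline rats 1 to 4 and at 45.5, 56.2, 49.0 and 46.9 CPM in METH rats 1 to 4. Thrsp, a regulator of lipid synthesis, was at 21.1, 21.5, 12.2 and 16.7 CPM in saline rats 1 to 4 and at 29.0, 21.2, 25.1 and 19.6 CPM in METH rats 1 to 4. The groups overlapped in both, and the log2 fold changes were -0.27 (SE 0.10) and 0.41 (SE 0.18), with a quasi-likelihood FDR of 0.353 and 0.422. With 1 rat left out, the raw p stayed below 0.05 in 5 of 8 fits for Acaca and 4 for Thrsp, whose value ran from 0.26 without saline rat 3 to 0.51 without saline rat 2. Fasn, the fatty acid synthase, differed by -0.04 (SE 0.07).

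Cell type markers moved between the groups to the following extent. At a raw p below 0.05, 2 of 8 microglial, 2 of 4 endothelial, 1 of 9 oligodendrocyte (Opalin) and 1 of 5 general neuronal markers (Snap25) were lower. Opalin and Snap25 each had a log2 fold change of -0.52 and a quasi-likelihood FDR of 0.0632. In the other direction, 2 of 8 projection neuron markers and 1 of 2 choroid plexus markers tested were higher, and 0 of 7 astrocyte markers passed either way. Of all genes tested, 6.26% were higher and 4.88% were lower at that threshold. Cx3cr1, a microglial receptor, was the only one of these markers that was called (-0.73, quasi-likelihood FDR 0.0408). Markers of the same lists did not all move down. Above 0 lay 2 of 9 oligodendrocyte markers (Mbp and Mobp) and 2 of 8 microglial markers (C1qa at 0.11 and C1qb at 0.09). So did 1 of 5 general neuronal markers (Rbfox3 at 0.09), 3 of 7 astrocyte markers (the highest Gfap at 0.40) and 0 of 4 endothelial markers. The astrocyte markers, of cells that supply cholesterol to neurons, summed to 3190.3 to 3823 CPM in saline rats and 3369.7 to 3993 CPM in METH rats. The part of these cell types in the values above was not tested.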

How the data were processed

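Poly(A) RNA of 8 striata was sequenced as paired-end reads. The authors used Cutadapt (1.18 in the submitters' processing notes), STAR 2.7.0e with rn6 and featureCounts (Subread 1.6.4), and deposited raw counts per gene symbol, 1 column for each rat. Which annotation and strand option were used, and how reads with several matches were treated, is not given in the sources used here.

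Counts were filtered (filterByExpr, minimum count 10), scaled by TMM and tested with the edgeR 4.0.16 quasi-likelihood F-test in R 4.3.3, with Benjamini-Hochberg adjustment over 12014 genes. A gene was called when its FDR was under 0.05 and its average log2 CPM over 1. The standard error (SE) is the size of the log2 fold change over the square root of F, and 95% intervals used 13.4 degrees of freedom. Exact permutation tests used log2 CPM (prior count 2), and their smallest two-sided p is 0.0286. Alternatives were DESeq2 1.42.0, limma 3.58.1, other edgeR tests, scalings and filters, leaving out each rat, and blocking on the rat number. The code was tested on simulated data. Within each group, counts varied beyond sampling noise, with chi-square values of 10.1 to 27.6 per degree of freedom. P-values set the difference between groups against the spread between these rats, and the edgeR fit shares part of that spread over genes.

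The genes, lists and tests were chosen with earlier results of these data known. Values per rat are given for 14 genes fixed by name and for genes with a raw p below 0.05. The rule also covered any of the 30 genes without overlap between groups, and there was none. Apoe and Fasn are given whatever their values, and some genes of the lists that the rule would name are not reported here. Further values of Mvk, Ebp, Idi1 and Soat1 were added after they were seen. Levels were not compared between genes, since no gene lengths of rn6 were used here.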

Additional observations from a re-analysis of the deposited data

Results flagged for a closer look

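In 5 of 80 groups of 4 rats, over the genes named here, 1 rat lay apart from its group: its gap to the nearest rat, divided by the distance from highest to lowest rat in log2 CPM, was above Dixon's 95% critical value. Chance gives about 5% of groups. METH rat 3 stood above the other METH rats for Mvk (a ratio of 0.917), Cyp46a1 (0.891) and Apoe (0.877). METH rat 1 stood above the other METH rats for Sqle (0.843) and Msmo1 (0.952). The cause was not tested.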

How the results depend on the processing

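None of the alternatives called any of the 30 genes. The number of all genes called moved from 62 to 168 with the edgeR exact test, 170 with the likelihood ratio test, 191 with DESeq2 and 37 with the replicate block, and ranged from 37 to 70 with a rat left out. The number of the 30 genes at a raw p below 0.05 moved from 1 to 2 with total-count scaling (Hmgcs1 and Insig1, 0 higher and 2 lower) and to 0 with the replicate block (0 higher), and ranged from 0 to 4 with a rat left out (0 to 2 higher, 0 to 4 lower, the 4 lower without saline rat 3). Saline rat 3 had the lowest saline value of each of the 4 genes that were lower without it. Total-count scaling put the median of all genes at -0.04, against -0.01 with TMM. What moved the other counts was not tested. The median of the 30 genes ranged from -0.08 to -0.02 with a rat left out. Medians of the role groups under these settings were added after the data were seen.

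The direction turned for genes near 0. Fdps had a log2 fold change of -0.0063 with limma-voom, -0.0081 with upper-quartile scaling, -0.037 with total-count scaling and -0.0055 with the replicate block. Hsd17b7 had -0.0062 with upper-quartile and -0.032 with total-count scaling, Dhcr7 had -0.019 with total-count scaling, and Scap had 0.0011 when every gene with at least 1 count was tested. With a rat left out the ranges were -0.081 to 0.015 for Acat2, -0.15 to 0.028 for Mvd, -0.093 to 0.064 for Fdps, -0.16 to 0.028 for Cyp51, -0.14 to 0.025 for Msmo1, -0.092 to 0.19 for Hsd17b7, -0.067 to 0.072 for Dhcr7, -0.080 to 0.044 for Insig2, -0.036 to 0.023 for Scap, -0.087 to 0.023 for Npc1, -0.034 to 0.13 for Npc2 and -0.084 to 0.0028 for Fasn.

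Rats with the same number are different animals, and their deviations from the group means had correlations from -0.20 to 0.04, so the replicate block is only an alternative. With it Cyp46a1 was no longer at a raw p below 0.05. Depth limits Hsd17b7 most, with at most 49 reads in a rat.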
